A study of Mus musculus with 466 samples.

Results

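The livers of 6 mice taken at day 60 of caloric restriction, the latest time in the study, were set against the livers of 6 mice taken at day 0. Both groups were male C57BL/6J mice described as obese, and the day 60 mice had been on a restricted diet for 60 days while the day 0 mice had not yet started it. Day 60 was chosen as every liver array labelled day 60, and all of these animal IDs open with the letter N. The day 0 arrays were those with IDs that open with the same letter, whose meaning the labels do not give. These 12 arrays stood among 80 liver arrays and 466 arrays in all, from 80 animals. Total RNA, labelled with biotin, was hybridised to Affymetrix arrays. Each value is a linear intensity per probe set, with a mean over each liver array between 0.991 and 0.999. Day 60 appears in the title and the labels, while the days listed in the series text end at 42. Mice kept off restriction were not among the arrays of later days, so ageing over the same weeks is part of the contrast. The sources used here do not give how the mice became obese, their ages, the hour of collection, the feeding state at collection or the degree of restriction.

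The liver stores surplus energy as triglyceride in lipid droplets, makes new fatty acids from carbohydrate when insulin is high, and burns fatty acids and makes ketone bodies when food is short. It also folds and secretes most plasma proteins, which depends on chaperones of the endoplasmic reticulum (ER), and when unfolded proteins build up there the sensors of the unfolded protein response raise the output of these chaperones. In obesity the liver gains lipid droplets and their coat proteins, and weight loss is known to reduce liver fat.

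In restricted livers many ER and cytosolic chaperone genes and part of the fatty acid synthesis genes were higher at day 60. Both metallothionein genes, part of the lipid droplet genes, and some genes of bile acid synthesis and export and of fatty acid oxidation were lower. Across 13536 genes, 1044 rose (7.71%) and 1220 fell (9.01%), called with limma at a Benjamini-Hochberg adjusted p under 0.05. Most changes were small, since the median size of the log2 change among the 2264 called genes was 0.191. A size of 0.5 or more was reached by 85 called genes and a size of 1 or more by 9. The median change over all genes tested was 0.0004. For 926 of the called genes the 6 day 60 values and the 6 day 0 values did not overlap, and over all genes tested 3.49% lay wholly above and 3.83% wholly below day 0. With the mean levels of erythrocyte and skeletal muscle markers as covariates 702 genes were higher and 708 lower.

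**Figure D1:**
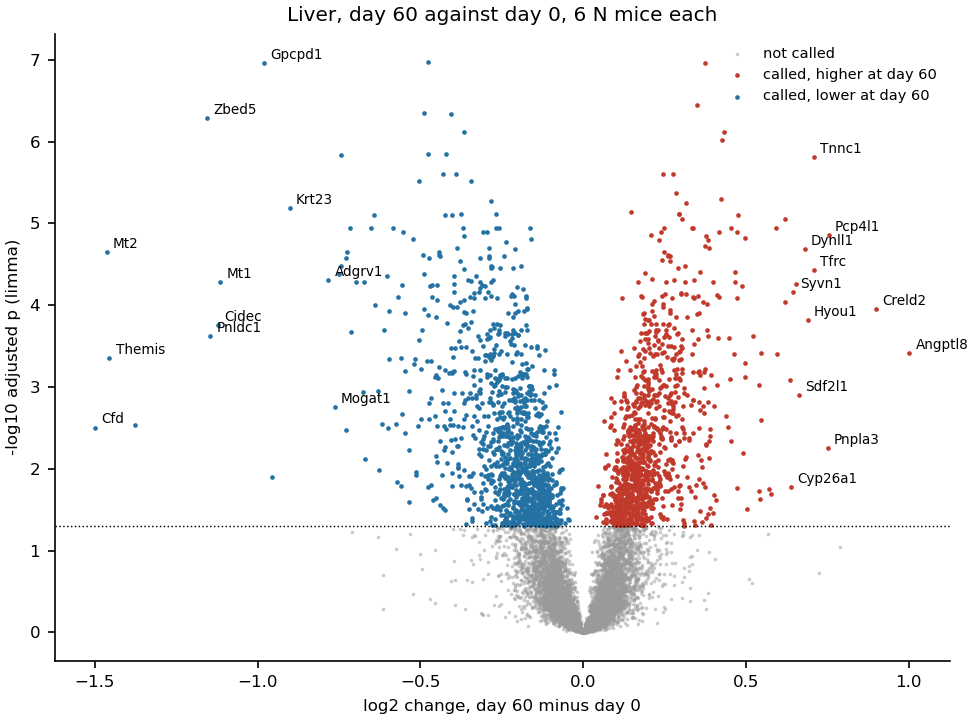
Each point is 1 of the 13536 genes tested in liver, with the log2 change at day 60 minus day 0 on the horizontal axis and the -log10 of the limma adjusted p on the vertical axis (n = 6 mice each). The 1044 red genes were higher and the 1220 blue genes lower at day 60, and labels mark most of the genes with the largest changes whose groups did not overlap.

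The arrays carried the marker genes of liver. Alb, the albumin gene, lay between 34.2 and 36.4 at day 60 and between 33.65 and 35.97 at day 0, where the highest value of any gene on a liver array was 39.3. The summed level of 10 hepatocyte markers was 241 to 250 at day 60 and 239 to 247 at day 0, and limma called 0 of the 10 (1 had an unadjusted p under 0.05). Of the lists of other cell types, those of Kupffer cells and macrophages (13 genes), lipid-associated macrophages (9), neutrophils (7), B and plasma cells (6), cholangiocytes (5) and skeletal muscle (12) held 0 genes that limma called, with an unadjusted p under 0.05 for 1 lipid-associated macrophage gene and 0 of the others. The fat cell hormone gene Adipoq lay between 0.0391 and 0.278 at day 60 and between 0.0401 and 0.285 at day 0. The erythroid gene Alas2, which starts haem synthesis, lay between 2.23 and 3.53 at day 60 and between 3.90 and 4.16 at day 0, with no overlap, although its change of -0.40 ± 0.15 was not called (adjusted p = 0.0548). The summed erythrocyte markers, Alas2 and Slc4a1, were 2.29 to 3.60 at day 60 and 3.97 to 4.23 at day 0, a sum that is nearly all Alas2. Slc4a1 alone lay between 0.05955 and 0.0731 at day 60 and between 0.05939 and 0.07522 at day 0, and was not called. The erythrocyte covariate is the mean log2 level of these 2 genes, so it carries the separation of Alas2 between the days. In bulk tissue fewer cells of a type and less RNA per cell cannot be told apart.

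Most of the ER chaperone genes rose. Of 23 genes tested 16 rose and 0 fell (69.6%, against 7.71% of all genes), the median change was 0.24 against 0.0004 over all genes, and for 10 of them every day 60 mouse lay above every day 0 mouse, as for 3.49% of all genes. The promoters of 5 of the called genes are printed because they hold the ER stress response element (CCAAT, 9 free bases and CCACG), to which factors of the unfolded protein response are known to bind. The sequences come from RefSeq (build GRCm38.p6) and run from 250 bases before to 50 bases after the annotated start, 5′ to 3′ on the gene's strand, with each match on either strand in capitals. Hspa5 lies at chr2:34771840-34772139 (+), Creld2 at chr15:88819396-88819695 (+), Syvn1 at chr19:6046326-6046625 (+), Hsp90b1 at chr10:86705395-86705694 (-) and Dnajc3 at chr14:118937682-118937981 (+).
Hspa5: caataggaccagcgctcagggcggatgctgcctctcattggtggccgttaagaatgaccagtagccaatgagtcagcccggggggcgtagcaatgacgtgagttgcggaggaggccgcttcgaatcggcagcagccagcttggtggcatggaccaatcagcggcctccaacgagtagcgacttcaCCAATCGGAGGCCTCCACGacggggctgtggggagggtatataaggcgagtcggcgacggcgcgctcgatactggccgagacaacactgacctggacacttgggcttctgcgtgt
Creld2: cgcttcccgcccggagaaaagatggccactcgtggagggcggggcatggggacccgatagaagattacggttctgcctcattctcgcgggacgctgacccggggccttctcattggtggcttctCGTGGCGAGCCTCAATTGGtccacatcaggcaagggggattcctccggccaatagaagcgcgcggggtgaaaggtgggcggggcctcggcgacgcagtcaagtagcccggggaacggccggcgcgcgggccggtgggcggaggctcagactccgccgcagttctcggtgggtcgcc
Syvn1: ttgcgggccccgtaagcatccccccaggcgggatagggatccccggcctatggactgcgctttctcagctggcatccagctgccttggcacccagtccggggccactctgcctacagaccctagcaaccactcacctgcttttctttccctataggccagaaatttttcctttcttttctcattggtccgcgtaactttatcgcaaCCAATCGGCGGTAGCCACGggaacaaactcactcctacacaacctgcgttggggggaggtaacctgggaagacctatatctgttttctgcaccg
Hsp90b1: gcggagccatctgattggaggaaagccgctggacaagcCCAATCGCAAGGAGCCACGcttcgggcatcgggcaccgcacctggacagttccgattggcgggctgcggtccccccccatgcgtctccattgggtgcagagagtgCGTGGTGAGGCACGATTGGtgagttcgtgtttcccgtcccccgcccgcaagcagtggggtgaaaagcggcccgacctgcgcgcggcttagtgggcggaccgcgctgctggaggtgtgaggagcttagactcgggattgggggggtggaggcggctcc
Dnajc3: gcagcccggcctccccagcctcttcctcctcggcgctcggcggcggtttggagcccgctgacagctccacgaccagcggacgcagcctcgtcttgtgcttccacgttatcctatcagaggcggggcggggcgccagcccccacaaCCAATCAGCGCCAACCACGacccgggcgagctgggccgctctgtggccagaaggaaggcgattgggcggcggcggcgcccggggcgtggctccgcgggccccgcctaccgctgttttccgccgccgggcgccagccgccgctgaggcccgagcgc
Hsp90b1 held 2 matches, 1 on each strand. The element was found in 5 of the 14 called genes of the list with a promoter sequence and in 4 of the 6 genes that were not called (Pdia6, Calr, Canx and Derl3). It was found in 0.119% of 32851 RefSeq promoters, from 0.137% of 27025 genes. A match describes the letters alone, and absence of the exact letters says nothing of a factor.

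Creld2, an ER resident protein induced by stress, showed the largest rise of the list. Its lowest, median and highest intensities were 8.01, 8.25 and 10.2 at day 60, against 3.66, 4.40 and 6.76 at day 0. The groups did not overlap, and the log2 change was 0.90 ± 0.15 (SE, fold 1.87, adjusted p = 0.000112). The BiP gene Hspa5, the main Hsp70 chaperone of the ER lumen, had 17.2, 17.8 and 19.3 at day 60, against 13.8, 15.4 and 16.6 at day 0. Every restricted mouse was again above every day 0 mouse, and the change was 0.24 ± 0.04 (adjusted p = 7.76e-05). Hyou1, a large ER chaperone that exchanges nucleotide on BiP, ranged from 2.06 to 2.60 at day 60 and from 1.23 to 1.89 at day 0 (0.69 ± 0.12, adjusted p = 0.000153). Manf, a secreted ER stress protein, ranged from 5.73 to 6.83 at day 60 and from 3.35 to 5.07 at day 0 (0.66 ± 0.11, adjusted p = 5.54e-05). Sdf2l1, a BiP cofactor, rose by 0.66 ± 0.14 without overlap. Syvn1, the ubiquitin ligase HRD1 that marks misfolded ER proteins for breakdown, ranged from 1.504 to 1.95 at day 60 and from 0.966 to 1.41 at day 0. The 5 other day 0 values of Syvn1 lay at or below 1.04, and its change was 0.65 ± 0.11 (adjusted p = 6.82e-05). Cdk2ap2, a cell cycle regulator that the list holds as a target of the response, rose by 0.39 ± 0.06, while its second and dimmer probe set differed by 0.03.

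The other called members, named after their values were seen, were Edem1, Dnajb11, Hsp90b1, Pdia3, Sel1l, Dnajc3, Dnajb9, Pdia4 and Xbp1, with changes from 0.17 for Dnajc3 to 0.38 for Pdia4. Xbp1 encodes the transcription factor made active by the ER sensor IRE1, and its change was 0.19 ± 0.07 (adjusted p = 0.0482). Among the 7 that were not called were Herpud1 (-0.02), P4hb (0.01), Atf6 (0.02) and Canx (0.03). In the arm of the response that runs through translation control 1 of 18 genes rose and 3 fell (5.6% and 16.7%, against 7.71% and 9.01% of all genes). Atf4, its central transcription factor, rose by 0.20 ± 0.06 (adjusted p = 0.0135), a call lost with the marker covariates, with only the 12 arrays of days 0 and 60, and without N50 of day 0 or N22 of day 60. Those that fell were Trib3, a pseudokinase that curbs insulin signalling (-0.55 ± 0.08, adjusted p = 1.29e-05), Sesn2, a sestrin that restrains mTORC1 (-0.26 ± 0.08), and Nupr1, a stress-induced chromatin protein (-0.24 ± 0.08), which lost the call in 10 of 22 settings, the marker covariates among them. Trib3 ranged from 0.202 to 0.271 at day 60 and from 0.305 to 0.389 at day 0. Ddit3, the CHOP gene, differed by 0.24 (adjusted p = 0.147), and the list had a median of -0.06.

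Chaperones of the cytosol and mitochondria rose in part as well. Of 17 heat shock genes 9 rose and 0 fell (52.9%, against 7.71% of all genes), with a median change of 0.21. With the marker covariates 6 of the 17 were higher, against 702 of all 13536 genes. Hsp90aa1, the inducible HSP90 gene, had a lowest, median and highest intensity of 12.8, 14.1 and 14.5 at day 60, against 9.59, 11.2 and 12.4 at day 0. The groups did not overlap (0.34 ± 0.06, adjusted p = 4.94e-05). Stip1, which hands client proteins between HSP70 and HSP90, ranged from 3.49 to 4.59 at day 60 and from 2.78 to 3.13 at day 0 (0.45 ± 0.07, adjusted p = 1.15e-05). Hspe1, the mitochondrial chaperonin lid, rose by 0.19 ± 0.03 and did not overlap. Dnaja1, a cochaperone of HSP70, rose by 0.21 ± 0.04 with an overlap, since 1 day 60 mouse at 7.47 lay below the highest day 0 mouse at 7.52. The inducible HSP70 gene Hspa1b, named after its value was seen, differed by 0.52 without being called (adjusted p = 0.25). The Hspe1 promoter at chr1:55087898-55088197 (+) is printed in the same way because it holds 2 overlapping matches, on opposite strands, to a heat shock element (GAA, 2 free bases, TTC, 2 free bases and GAA).
Hspe1: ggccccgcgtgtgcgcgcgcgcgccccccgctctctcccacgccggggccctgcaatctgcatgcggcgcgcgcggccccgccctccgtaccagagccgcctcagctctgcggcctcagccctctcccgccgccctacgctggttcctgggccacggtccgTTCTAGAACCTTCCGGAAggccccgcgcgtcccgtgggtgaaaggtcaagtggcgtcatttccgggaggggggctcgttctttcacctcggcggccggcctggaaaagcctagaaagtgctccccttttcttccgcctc
This element was found in 2 of 7 called heat shock genes with a promoter sequence (Hspe1 and Hsph1), in 0 of 5 that were not called, and in 0.603% of all promoters.

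De novo fatty acid synthesis genes rose in part. Of 19 genes 8 rose (42.1%, against 7.71% of all genes) and 1 fell, with a median change of 0.12. For 7 of the 19 every day 60 mouse lay above every day 0 mouse, as for 3.49% of all genes. Fasn, fatty acid synthase, had a lowest, median and highest intensity of 9.27, 11.9 and 12.7 at day 60, against 7.12, 7.63 and 9.06 at day 0. Every restricted mouse lay above every day 0 mouse, and the change was 0.55 ± 0.13 (fold 1.46, adjusted p = 0.00256). Elovl6, which lengthens palmitate, ranged from 5.62 to 8.51 at day 60 and from 4.05 to 5.18 at day 0 (0.54 ± 0.11, adjusted p = 0.00095). Acaca, acetyl-CoA carboxylase, ranged from 4.33 to 5.52 at day 60 and from 3.45 to 4.05 at day 0 (0.37 ± 0.08, adjusted p = 0.000597). Srebf1, the transcription factor that insulin uses to drive this pathway, rose by 0.32 ± 0.08 (adjusted p = 0.00416). Acly, the source of acetyl-CoA in the cytosol, rose by 0.19 ± 0.04, and Thrsp, the lipogenic protein Spot 14, by 0.09 ± 0.02. The groups did not overlap for any of these 6 genes.

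Pnpla3, a lipid droplet protein under Srebf1 control and counted in that list, was split among the restricted mice. The gene was dim, with a mean intensity of 0.0766, where the medians of the liver arrays lay between 0.125 and 0.132. Its intensities were 0.173, 0.158 and 0.157 in 3 day 60 mice and 0.0829, 0.0787 and 0.0756 in the other 3, against 0.0625 to 0.0732 at day 0. The change was 0.75 ± 0.19 (adjusted p = 0.00555), and it was not called with the marker covariates. The same 3 mice had the 3 highest values of Fasn and of Elovl6 at day 60. Scd1, the desaturase that makes oleate, ranged from 23.9 to 27.2 at day 60 and from 24.4 to 26.8 at day 0, and the 95% interval of its change ran from -0.09 to 0.08 on the log2 scale. The member that fell was Elovl5, an elongase of polyunsaturated fatty acids (-0.15 ± 0.03), named after its value was seen. In J mice, those whose IDs open with the other letter, limma called 0 of the 19 genes at day 42 (an unadjusted p under 0.05 for 3), and the change of Fasn there was 0.06 (adjusted p = 0.859).

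Angptl8, a liver and fat hormone that rises with feeding and restrains lipoprotein lipase, showed the largest rise of any gene whose groups did not overlap. It had 3.84, 4.95 and 5.81 as lowest, median and highest values at day 60, against 1.79, 2.49 and 3.05 at day 0. The change was 1.002 ± 0.19 (fold 2.002, adjusted p = 0.000386). Its relative Angptl4, which is induced in fasting through PPARα, fell instead by 0.51 ± 0.14 (adjusted p = 0.0119), with 3.30 to 5.24 at day 60 and 5.325 to 7.37 at day 0. That fall was not called with the marker covariates. Of 20 genes of apolipoproteins and lipoprotein handling 2 rose and 3 fell (10% and 15%, against 7.71% and 9.01% of all genes). Apom, named after its value was seen, was the other that rose, and among those that fell were Apoc2, the cofactor of lipoprotein lipase (-0.08 ± 0.02), and Apoa4, an apolipoprotein tied to liver fat content (-0.39 ± 0.10).

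Lipid droplet and storage genes fell in part. Of 17 genes 6 fell (35.3%, against 9.01% of all genes) and 0 rose, with a median change of -0.13. Cidec, the droplet protein CIDEC or FSP27 that fuses droplets, had a lowest, median and highest intensity of 0.227, 0.427 and 0.481 at day 60, against 0.642, 0.835 and 0.993 at day 0. Every restricted mouse lay below every day 0 mouse, and the change was -1.12 ± 0.20 (fold 0.46, adjusted p = 0.000174). Cidea, a related droplet protein, fell by 0.96 ± 0.27 (adjusted p = 0.0127), with 0.150 to 0.389 at day 60 and 0.311 to 0.779 at day 0, an overlap, and was not called in the fit of all 80 liver arrays or with the marker covariates. Plin2, the main droplet coat of hepatocytes, ranged from 14.4 to 15.2 at day 60 and from 15.7 to 16.6 at day 0, a change of -0.13 ± 0.03 (adjusted p = 0.0057). Pnpla2, the triglyceride lipase ATGL that empties droplets, fell as well, by 0.42 ± 0.05 (adjusted p = 1.4e-06), with 0.971 to 1.26 at day 60 and 1.36 to 1.585 at day 0. Fitm2, which helps droplets bud from the ER, fell by 0.19 ± 0.05, a call lost with the marker covariates. Pparg, the nuclear receptor that drives droplet genes, differed by -0.34 ± 0.16 and was not called (adjusted p = 0.147), though it was in the fit of all 80 liver arrays (adjusted p = 0.0168). With the marker covariates 3 of the 17 fell, against 708 of all 13536 genes.

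Of 17 triglyceride assembly genes 1 rose and 2 fell (5.9% and 11.8%, near the 7.71% and 9.01% of all genes), with a median of 0. Mogat1, which acylates monoacylglycerol and is raised in fatty liver, ranged from 0.638 to 0.966 at day 60 and from 1.22 to 1.52 at day 0 (-0.76 ± 0.17, adjusted p = 0.00177). Gpat3, an acyltransferase of the ER, fell by 0.39 ± 0.10, and the groups did not overlap. Gpam, the mitochondrial acyltransferase that starts glycerolipid synthesis, rose by 0.15 ± 0.05, but its groups overlapped and it lost the call in 9 of 22 alternative settings, among them the marker covariates and the fit of only the 12 arrays of days 0 and 60.

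**Figure D2:**
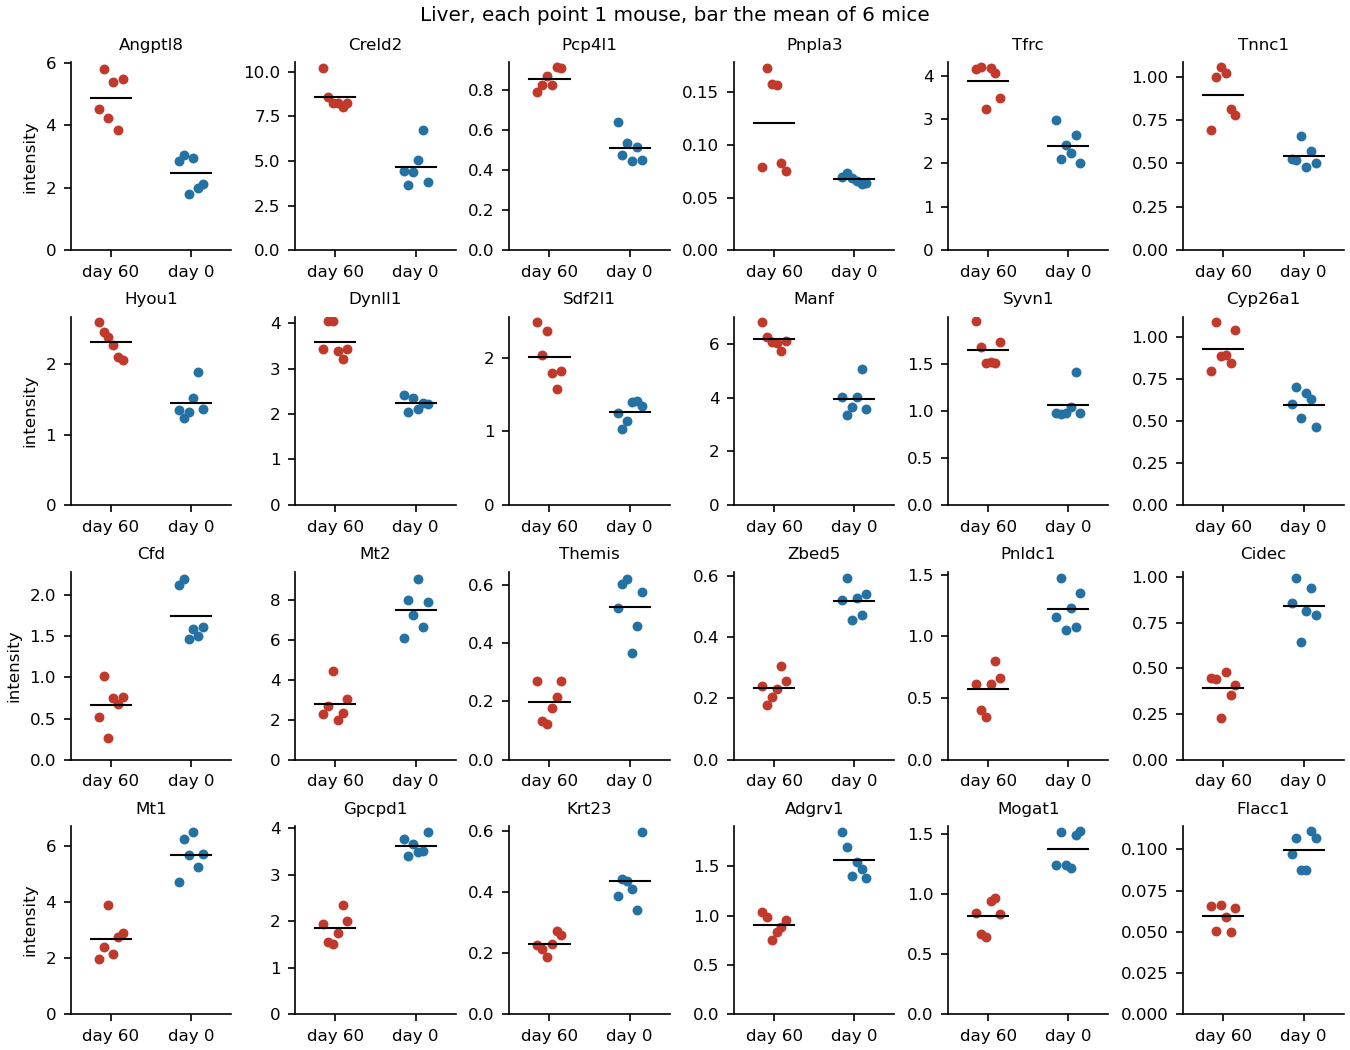
Intensity on linear axes that start at 0 for the 12 called genes with the largest rise (upper 2 rows) and the 12 with the largest fall (lower 2 rows) among those with no overlap, each point 1 mouse, day 60 in red on the left, day 0 in blue on the right, and the bar the mean of 6 mice. Pnpla3 splits into 3 higher and 3 lower restricted mice, all above the day 0 mice. The lack of overlap in every panel follows from how the genes were chosen.

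Cholesterol synthesis genes rose in part. Of 19 genes 4 rose (21.1%, against 7.71% of all genes) and 0 fell, with a median of 0.08. These were Mvd (0.57 ± 0.17), Lss (0.39 ± 0.10) and Sqle (0.38 ± 0.13), enzymes on the path to lanosterol, and Insig1 (0.15 ± 0.05), which holds back the sterol sensor. The groups overlapped for all 4, and with the marker covariates none of the 4 was called. Sqle, Mvd and Insig1 also lost the call when single mice were left out. Hmgcs1, named after its value was seen, which condenses acetoacetyl-CoA at the start of the pathway, differed by 0.02 (adjusted p = 0.918).

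Bile acid genes fell in part, with 7 of 22 lower (31.8%, against 9.01% of all genes), 1 higher and a median of -0.02. Cyp8b1, the sterol 12α-hydroxylase that makes cholic acid, had a lowest, median and highest intensity of 6.81, 10.6 and 12.7 at day 60, against 13.2, 13.8 and 15.1 at day 0. The groups did not overlap (-0.52 ± 0.10, adjusted p = 0.000458). Hsd3b7, an early enzyme of the pathway, fell by 0.22 ± 0.04 without overlap. Abcg8, a subunit of the sterol exporter into bile, ranged from 0.443 to 0.626 at day 60 and from 0.655 to 0.764 at day 0 (-0.41 ± 0.09, adjusted p = 0.000672). Abcb4, the phospholipid exporter of the bile canaliculus, fell by 0.21 ± 0.05 with an overlap. Named after their values were seen, Abcc3, Abcc2 and Abcg5, all transporters of bile acids, conjugates or sterols, fell, and Cyp39a1, an oxysterol hydroxylase, rose by 0.39 ± 0.14.

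Fatty acid oxidation and ketogenesis genes fell in part. Of 22 genes 6 fell (27.3%, against 9.01% of all genes) and 0 rose, and the median was -0.085. Ppara, a nuclear receptor that drives fat burning in fasting, had a lowest, median and highest intensity of 5.80, 6.54 and 7.07 at day 60, against 7.52, 7.94 and 8.12 at day 0. No values overlapped (-0.29 ± 0.05, adjusted p = 2.68e-05). Cpt1a, which admits fatty acids to mitochondria, had 4.94, 5.84 and 6.83 at day 60, against 7.53, 7.72 and 7.88 at day 0, again with no overlap (-0.39 ± 0.07, adjusted p = 0.000105). Slc25a20, the carnitine carrier of the inner membrane, fell by 0.12 ± 0.03. Angptl4, given above and counted in the lipoprotein list as well, was another that fell. Vnn1, a pantetheinase under PPARα control, and Acads, the short-chain dehydrogenase, fell by 0.29 and 0.10, named after their values were seen. The 16 genes not called, in part named after their values were seen, included Hadha (-0.10, adjusted p = 0.0516), Acadl (-0.02), Acadvl (-0.02), Hadh (-0.01) and Acaa2 (-0.002). Fgf21, the fasting hormone of the liver, ranged from 0.198 to 0.303 at day 60 and from 0.222 to 0.358 at day 0 and was not called (adjusted p = 0.264). With the marker covariates 3 of the 22 fell, against 708 of all 13536 genes. The 25 genes of oxidative phosphorylation had changes between -0.04 and 0.03, and limma called 0 of them (1 at an unadjusted p under 0.05).

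**Figure D3:**
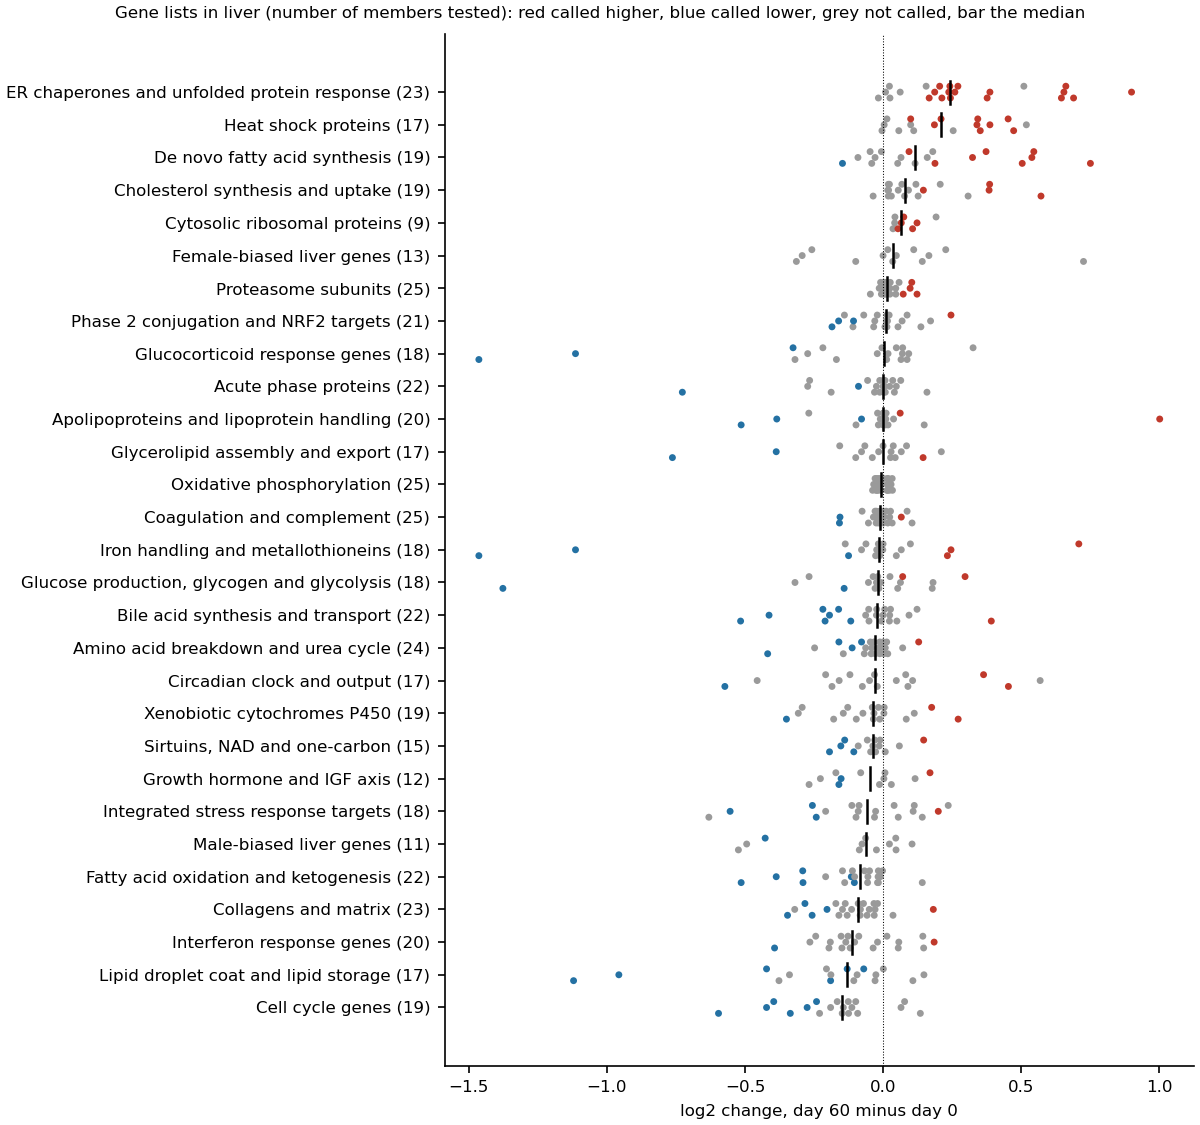
The log2 change at day 60 minus day 0 of each tested member of 29 gene lists, 1 row a list and ordered by the list's median (black bar), with red points called higher, blue called lower and grey not called. ER chaperones and heat shock proteins stand at the top with medians of 0.24 and 0.21, and cell cycle genes at the bottom with -0.15.

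Of 18 glucose genes 2 rose and 2 fell (11.1% each, against 7.71% and 9.01% of all genes), with a median of -0.02. A pair of subunits that target a phosphatase to glycogen changed in opposite directions. Ppp1r3b rose by 0.30 ± 0.09 (adjusted p = 0.0159), a call lost with the marker covariates, with only the 12 arrays of days 0 and 60, and without the day 0 mouse N74. Ppp1r3g, which is induced in fasting, fell by 1.38 ± 0.32 (adjusted p = 0.00288). The median of Ppp1r3g was 0.106 at day 60 and 0.244 at day 0, with 1 day 60 mouse at 0.264 inside the day 0 range of 0.207 to 0.712. Pcx, pyruvate carboxylase at the start of gluconeogenesis, ranged from 6.30 to 6.795 at day 60 and from 7.00 to 7.41 at day 0 (-0.14 ± 0.03, adjusted p = 0.000316). Pck1, the next enzyme, ranged from 13.8 to 20.6 at day 60 and from 18.4 to 22.5 at day 0, and its difference of -0.32 ± 0.14 was not called (adjusted p = 0.112), though it was in the fits of only the 12 arrays (adjusted p = 0.0414) and of all 80 liver arrays (adjusted p = 0.016). G6pc, glucose-6-phosphatase, differed by -0.01 (95% interval -0.19 to 0.17), while its partner Slc37a4, the glucose-6-phosphate carrier, rose by 0.07 ± 0.03 with an overlap and lost the call in 12 of 22 settings.

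Of 24 genes of amino acid breakdown and the urea cycle 1 rose and 4 fell (4.2% and 16.7%, against 7.71% and 9.01% of all genes). Got1, cytosolic aspartate aminotransferase, had a median of 4.68 at day 60 and 6.65 at day 0 and fell by 0.42 ± 0.11 (adjusted p = 0.0086), but 1 day 60 mouse at 6.40 lay among the day 0 mice. Bckdha, of branched-chain ketoacid breakdown, fell by 0.16 ± 0.04, Oat, ornithine aminotransferase, by 0.11 ± 0.04, and Nags, which makes the activator of the urea cycle, rose by 0.13 ± 0.05. All 3 lost the call with the marker covariates, and Nags lost it in 12 and Oat in 8 of 22 settings. In the growth hormone axis, Igf1 ranged from 23.1 to 24.1 at day 60 and from 23.02 to 23.6 at day 0, and the 95% interval of its change was -0.02 to 0.03. Igfbp2, a circulating IGF binding protein, rose by 0.17 ± 0.04 (adjusted p = 0.00509). Stat5b and Stat5a, which carry the growth hormone signal, fell by 0.15 ± 0.04 and 0.16 ± 0.05, and Stat5a lost the call with the marker covariates and without the day 0 mouse N72. Igfbp1 spread widely at day 60, from 8.48 to 18.9, against 12.99 to 19.1 at day 0, and was not called. Among sex-biased liver genes 1 of 11 male-biased genes fell (9.1%, near the 9.01% of all genes), the sulfotransferase gene Sult5a1 (-0.43 ± 0.11). Limma called 0 of 13 female-biased genes (0 at an unadjusted p under 0.05).

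The clock genes are tied to the hour of collection, which is not given. Of 17 genes 2 rose and 1 fell (11.8% and 5.9%, near the 7.71% and 9.01% of all genes). Cry1 and Per2, both repressors of the clock, rose by 0.45 ± 0.11 and 0.36 ± 0.10 (adjusted p = 0.00453 and 0.00949), and Nr1d1, which represses Arntl, fell by 0.57 ± 0.17 (adjusted p = 0.0146). The day 60 and day 0 ranges overlapped for all 3, and none of the 3 was called with the marker covariates, nor Nr1d1 with only the 12 arrays of days 0 and 60 or without N43 of day 60. Arntl, the BMAL1 gene, ranged from 0.196 to 0.515 at day 60 and from 0.169 to 0.268 at day 0 and was not called (0.57 ± 0.21, adjusted p = 0.0624), nor was the output gene Dbp (-0.46 ± 0.19, adjusted p = 0.0975). Arntl was called with only the genes above the median intensity tested (adjusted p = 0.0482) and without N72 of day 0 or N82 of day 60, and Dbp without N82 (adjusted p = 0.0473). Over the days 0, 3, 7, 14, 21, 42 and 60 the mean of Nr1d1 was 0.847, 0.491, 0.517, 0.543, 0.602, 0.556 and 0.579, so day 3 already lay below day 0. The E-box CACGTG was found in the promoter of Cry1, 1 of 2 called clock genes with a promoter sequence, in 3 of 13 that were not called and in 7.15% of all promoters.

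The metallothioneins, small proteins that bind zinc and copper and respond to metals and glucocorticoids, were among the genes that fell most. Mt2 had a lowest, median and highest intensity of 1.98, 2.51 and 4.42 at day 60, against 6.07, 7.56 and 9.06 at day 0. Again no values overlapped (-1.46 ± 0.22, fold 0.363, adjusted p = 2.23e-05). Mt1 had 1.99, 2.58 and 3.90 at day 60, against 4.71, 5.71 and 6.49 at day 0 (-1.11 ± 0.18, adjusted p = 5.25e-05). The restricted mouse N43 was the highest of its group in both genes. Of 18 genes of the glucocorticoid response 3 fell (16.7%, against 9.01% of all genes) and 0 rose, and the median was 0.004. The 3 were Mt2, Mt1 and Klf9, a hormone-induced transcription factor (-0.33 ± 0.08). Of the 5 probe sets of Klf9, 4 differed by -0.30 to -0.40, and the dimmest differed by -0.02. Of 18 genes of iron handling and metallothioneins 3 rose and 3 fell (16.7% each, against 7.71% and 9.01% of all genes), with a median of -0.01. Those that fell were Mt2, Mt1 and, named after its value was seen, Hfe (-0.125 ± 0.04, adjusted p = 0.0241). The transferrin receptor gene Tfrc, which imports iron, ranged from 3.24 to 4.20 at day 60 and from 1.99 to 2.98 at day 0 (0.71 ± 0.11, fold 1.64, adjusted p = 3.75e-05). Slc11a2, the iron carrier DMT1, rose by 0.23 ± 0.05, and Hmox1, which breaks down haem, by 0.25 ± 0.08, both with an overlap, and Hmox1 lost the call in 7 of 22 settings. The lower level of Alas2 stood beside these iron genes, and its part in the result was not tested.

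Several of the largest changes were in genes with other roles. Cfd, the adipsin gene, known as a fat cell product and complement factor D, ranged from 0.257 to 1.02 at day 60 and from 1.47 to 2.195 at day 0 (-1.498 ± 0.35, fold 0.354, adjusted p = 0.00313). Adipoq differed by -0.05 ± 0.43 and was not called (adjusted p = 0.962). The summed markers of the adipocyte list, which include Cfd, were 21.98 to 24.8 at day 60 and 25.05 to 26.04 at day 0. Such a sum follows its brightest genes, while Adipoq reached only 0.285. Of the 7 genes of the list that were tested Cfd alone was called, and their median change was -0.04. Themis, a signalling protein of thymocytes, ranged from 0.123 to 0.269 at day 60 and from 0.367 to 0.620 at day 0 (-1.46 ± 0.28, adjusted p = 0.000442), while the other 10 tested genes of the T and NK cell list were not called and Cd3e had medians of 0.213 at day 60 and 0.189 at day 0. Gpcpd1, a glycerophosphocholine phosphodiesterase, ranged from 1.51 to 2.36 at day 60 and from 3.40 to 3.92 at day 0 (-0.98 ± 0.10, fold 0.507), with the smallest adjusted p of the named genes, 1.11e-07. Zbed5, of a family derived from transposases, fell by 1.15 ± 0.13, Pnldc1, a nuclease that trims small RNAs in germ cells, by 1.15 ± 0.21 and Krt23, a keratin induced in injured and fatty liver, by 0.90 ± 0.12, all without overlap. Adgrv1, a large adhesion receptor, and Flacc1 fell by 0.78 ± 0.13 and 0.75 ± 0.12, but for each a second and much dimmer probe set differed by -0.01 and -0.08.

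Among the genes with the largest rise, Pcp4l1, a small relative of a calmodulin regulator, ranged from 0.790 to 0.914 at day 60 and from 0.445 to 0.641 at day 0 (0.75 ± 0.11, adjusted p = 1.4e-05). Tnnc1, slow troponin C, rose by 0.71 ± 0.09, and 0 of the 12 skeletal muscle markers were called. Dynll1, a dynein light chain, rose by 0.68 ± 0.10, and Cyp26a1, which breaks down retinoic acid, by 0.64 ± 0.19 (adjusted p = 0.0168), though Cyp26a1 was not called with the marker covariates or in the fit of all 80 liver arrays. Itgae, an integrin of tissue-resident lymphocytes and some dendritic cells, ranged from 0.172 to 0.321 at day 60 and from 0.125 to 0.148 at day 0 (0.62 ± 0.09, adjusted p = 8.7e-06), and the other 7 tested genes of the MHC class II and dendritic list were not called.

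Part of the cell division genes fell. Of 19 genes 6 fell (31.6%, against 9.01% of all genes) and 0 rose, with a median of -0.15. Tpx2, a spindle assembly factor, ranged from 0.0310 to 0.0415 at day 60 and from 0.0451 to 0.0656 at day 0 (-0.60 ± 0.11, adjusted p = 0.000118). These values are dim, and the second probe set of Tpx2, of similar mean intensity (0.0368 against 0.0418), differed by only -0.225. Ube2c, a mitotic ubiquitin-conjugating enzyme, fell by 0.40 ± 0.08 with an overlap, Prc1, which bundles microtubules in cytokinesis, by 0.34 ± 0.07 without one, and Birc5, the survivin gene, by 0.42 ± 0.10. Mki67 and Top2a, common marks of dividing cells named after their values were seen, differed by -0.23 and -0.19 and were not called. With only genes above the median intensity of all probe sets tested, 3 of the 9 that remained fell, against 1214 of all 10139 genes in that setting. With the marker covariates 4 of 19 fell, against 708 of all 13536 genes.

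Of 23 collagen and matrix genes 1 rose and 4 fell (4.3% and 17.4%, against 7.71% and 9.01% of all genes). Those that fell were Col1a2 (-0.26 ± 0.07), Loxl1 (-0.28 ± 0.08), Col1a1 (-0.35 ± 0.10) and, named after its value was seen, Mmp2. The membrane protease gene Mmp14 rose by 0.18 ± 0.05. Col1a2, Loxl1 and Col1a1 overlapped between the days and lost the call with the marker covariates, in the fit of all 80 liver arrays and without N43 of day 60. Mmp14 lost the call with the covariates. Of 22 acute phase genes 2 fell (9.1%, near the 9.01% of all genes) and 0 rose. One was Il1rn, the interleukin 1 receptor antagonist (-0.73 ± 0.11, adjusted p = 2.68e-05, 0.290 to 0.362 at day 60 and 0.452 to 0.691 at day 0). The other was the protease inhibitor gene Serpina3n (-0.09 ± 0.03, adjusted p = 0.0473), which lost the call in 13 of 22 settings, the fit of all 80 liver arrays among them. Lcn2, an iron-scavenging lipocalin, differed by -0.27 and was not called. Of 25 coagulation and complement genes 1 rose and 2 fell (4% and 8%, against 7.71% and 9.01% of all genes). Cfb rose by 0.07 ± 0.02. C9 and F11 fell by 0.16 each. Both lost the call with the marker covariates and in the fit of all 80 liver arrays, and F11 lost it in 14 of 22 settings. Of 20 interferon response genes 1 rose and 1 fell (5% each, against 7.71% and 9.01% of all genes). Rsad2, an antiviral enzyme, fell by 0.39 ± 0.08 without overlap. Stat2 rose by 0.19 ± 0.06, a call lost with the marker covariates and without N74 of day 0 or N22 of day 60.

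In drug metabolism 2 of 19 cytochrome P450 genes rose and 1 fell (10.5% and 5.3%, near the 7.71% and 9.01% of all genes). Those that rose were Cyp2c37 (0.27 ± 0.05, 3.04 to 3.71 at day 60 and 2.625 to 2.996 at day 0) and Cyp2c54 (0.18 ± 0.04). They are near-identical members of a family, so that their probe sets may share signal. Cyp2c55 fell by 0.35 ± 0.12 and lost the call in 8 of 21 settings. Of 21 phase 2 genes 1 rose (Hmox1) and 3 fell (4.8% and 14.3%, against the same shares of all genes). The glutathione transferase genes Gstm6 and Gstm4 and the epoxide hydrolase gene Ephx1 fell by 0.16, 0.19 and 0.11, and all 3 lost the call with the marker covariates. Of 15 genes of sirtuins, NAD and one-carbon metabolism 1 rose and 4 fell (6.7% and 26.7%, against 7.71% and 9.01% of all genes). Among them Nampt, which recycles NAD, rose by 0.15 ± 0.04, and the mitochondrial deacylase genes Sirt5 and Sirt3 fell by 0.19 ± 0.04 and 0.14 ± 0.04. Cbs, the first enzyme of transsulfuration, fell by 0.15 ± 0.05. Nampt, Sirt3 and Cbs lost the call with the marker covariates, and Nampt lost it in 6 and Cbs in 7 of 22 settings. Of 9 ribosomal protein genes of the list 5 rose (against 7.71% of all genes), with a median of 0.07, and of all 30 tested, a family chosen after its values were seen, 12 rose and 0 fell. Among them were Rpl8 (0.11 ± 0.02), Rpl32 (0.08 ± 0.02) and Rps15 (0.07 ± 0.02). Rpl32 lost the call with the marker covariates and Rpl8 with the mean of its probe sets. The call for Rpl22 (0.12 ± 0.04) was not stable, since its second probe set differed by -0.19. Of 25 proteasome genes 4 rose (16%, against 7.71% of all genes) and 0 fell. Psmc2, Psmc6, Psma4 and Psmc5 rose by 0.07 to 0.12, and all 4 lost the call with the marker covariates. The gut gene Fabp2, which these livers expressed at 11.6 to 12.7 at day 60 and 13.3 to 14.1 at day 0, fell by 0.15 ± 0.04, and Oit3, of sinusoidal endothelium, fell by 0.13 ± 0.05. Both lost the call with the marker covariates, and Oit3 lost it in 12 of 22 settings.

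Day 60 was also tested against day 42, the nearest earlier day, in the same fit of 39 N mice. Limma called 0 of 13536 genes (548 had an unadjusted p under 0.05, 4.05%), which does not show that the days were alike. With all 80 liver arrays and the letter as a term 1 gene was called, Rwdd2a (0.43 ± 0.08, adjusted p = 0.0147). Day 42 against day 0, which shares the day 0 mice with day 60 against day 0, gave 594 higher (4.39%) and 985 lower genes (7.28%) in N mice. Without the day 42 mouse N70 374 genes were higher and 589 lower, a setting chosen after seeing the data. Over the days 0, 3, 7, 14, 21, 42 and 60 the mean of Hspa5 was 15.3, 15.4, 16.2, 16.9, 17.3, 17.8 and 18.1, each day above the one before. The mean of Hsp90aa1 on these days was 10.98, 11.4, 12, 12.8, 12.98, 13.8 and 13.9. Fasn had another course, with means of 7.84, 6.17, 6.86, 6.75, 7.79, 9.85 and 11.5, below day 0 on days 3, 7, 14 and 21 and above it on days 42 and 60. Elovl6 had means of 4.77, 4.001, 4.12, 4.29, 4.85, 5.82 and 6.98, below day 0 on days 3, 7 and 14. Cidec was already low at day 7, with means of 0.840, 0.610, 0.416, 0.380, 0.491, 0.322 and 0.394. The means of Mt2 were 7.48, 5.43, 5.78, 4.26, 3.02, 2.58 and 2.79. Pnpla3 stayed between 0.0646 and 0.0697 on days 0 to 21 and had means of 0.0972 at day 42 and 0.121 at day 60.

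**Figure D4:**
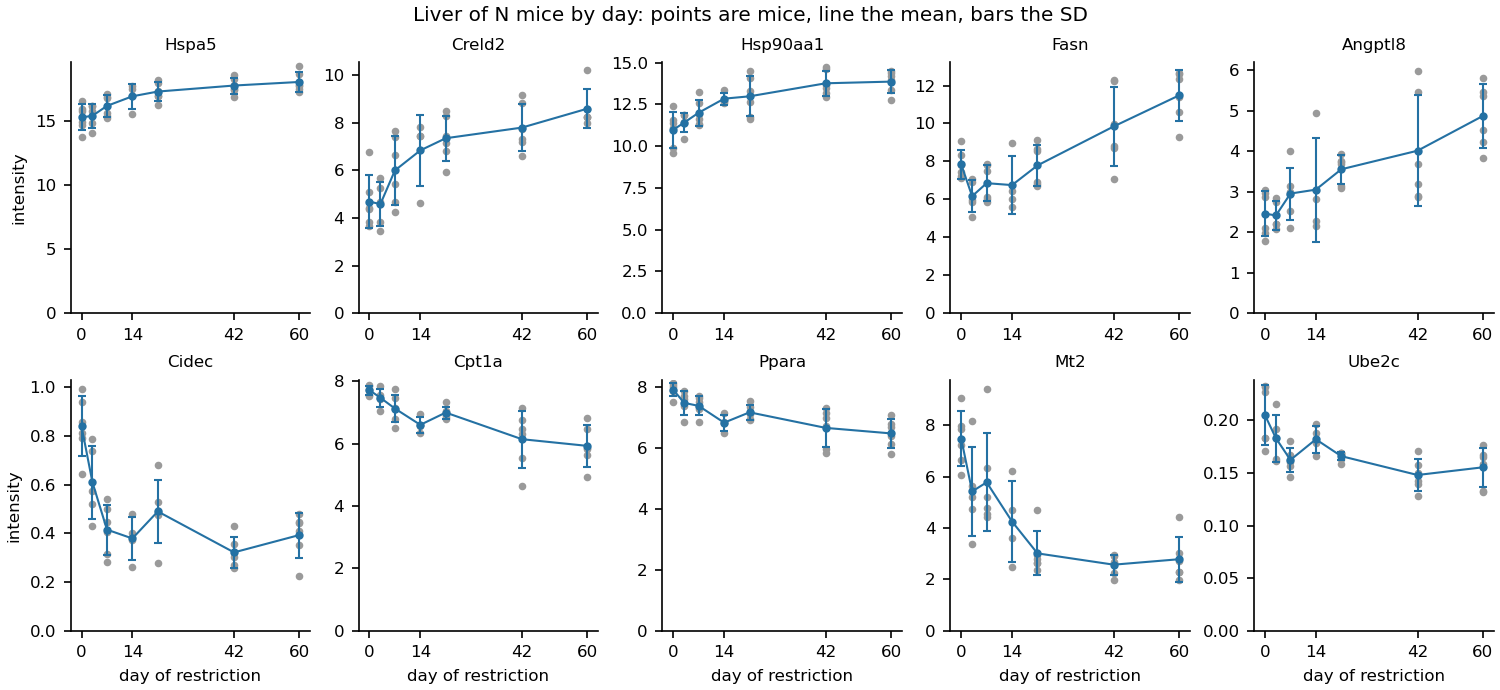
Intensity in liver of N mice over the days of restriction on linear axes that start at 0, with grey points for mice, the blue line for the mean and bars for the SD (4 to 6 mice a day). The chaperone genes Hspa5, Creld2 and Hsp90aa1 climb over the weeks, Fasn dips before it rises, and Cidec and Mt2 are lower than at day 0 on every later day.

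Mice whose IDs open with J were sampled up to day 42 and share no animal with this contrast. Set against J mice of day 0, 168 genes were higher (1.24%) and 537 lower (3.97%) at day 42. Of the 1044 genes higher at day 60 in N mice, 927 (88.8%) had a positive change in J mice and 104 (9.96%) were also called higher there. Of the 1220 lower genes, 1146 (93.9%) had a negative change and 358 (29.3%) were also called lower. Among the 11272 genes not called in N mice 61.1% had the same sign and 1.9% were called in J mice with that sign, and 0 genes were called in opposite directions. Among the genes called in both sets were Cidec (-1.03 in J mice), Mogat1 (-0.96), Themis (-1.22), Zbed5 (-0.86), Krt23 (-0.67), Pcp4l1 (0.73) and Tfrc (0.62). Of the 23 ER chaperone genes limma called 0 in J mice at day 42 (an unadjusted p under 0.05 for 5), where Hspa5 changed by 0.12 (adjusted p = 0.235) and Creld2 by 0.30 (adjusted p = 0.423). Of the 17 lipid droplet genes 7 were called lower in J mice, and of the 19 cell cycle genes 3. The difference between the letters and days was not tested, and with the marker covariates 0 genes were higher and 7 lower in J mice.

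**Figure D5:**
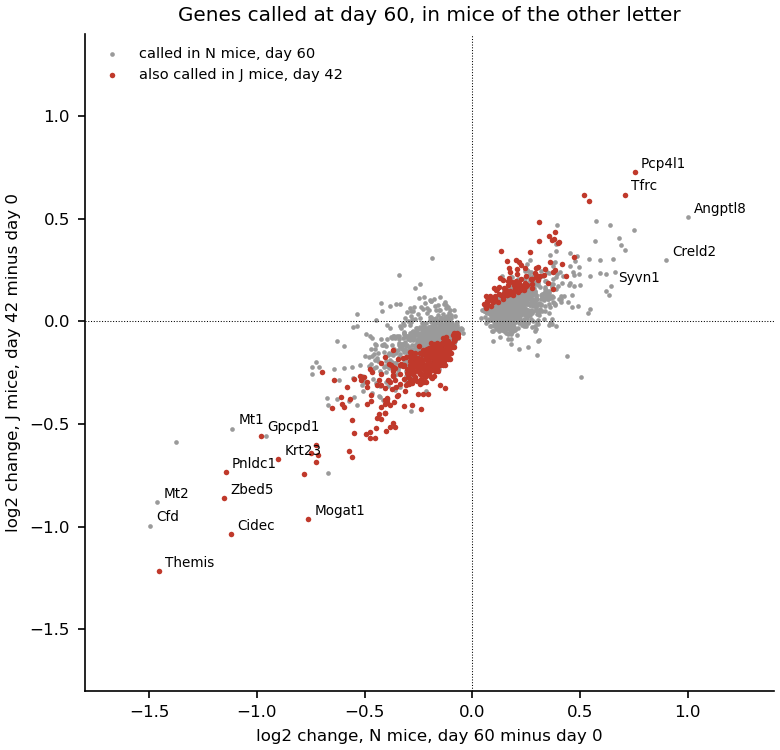
The log2 change of each of the 2264 genes called at day 60 in N mice (horizontal axis, day 60 minus day 0) against its change in J mice (vertical axis, day 42 minus day 0), with genes also called in J mice in red and the rest in grey. Of the 1220 lower genes 1146 also lie below 0 on the vertical axis, and of the 1044 higher genes 927 lie above it.

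Other tissues of the same mice gave the following side values, each from its own fit, and differences between tissues were not tested. Angptl8 rose by 1.03 ± 0.25, 0.78 ± 0.22 and 1.43 ± 0.31 in fat labelled mesenteric, perirenal and subcutaneous, and its difference of 0.64 ± 0.30 in fat labelled perigonadal was not called (adjusted p = 0.14). Pnpla3 and Tnnc1 rose in all 4 fat depots as labelled, by 0.38 to 0.74 and by 0.39 to 0.80, and Flacc1 fell in all 4, by 0.37 to 0.90. The skeletal muscle markers had median changes of -0.10, 1.88, 0.74 and 0.03 in fat labelled mesenteric, perigonadal, perirenal and subcutaneous, and their part in the values of Tnnc1 was not tested. Cidec, which is abundant in fat, differed by -0.02, -0.03, -0.03 and -0.08 in fat labelled mesenteric, perigonadal, perirenal and subcutaneous and was not called in any of them. Of the 23 ER chaperone genes 4, 6, 1 and 10 rose in the same order of depots, where 12.9%, 8.47%, 8.67% and 7.65% of all genes rose.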

How the data were processed

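Liver RNA of 12 main mice (6 at day 60 and 6 at day 0, IDs opening with N) was measured on Affymetrix arrays, per the labels and the series design. The deposited values are linear intensities per probe set, and the summarisation and normalisation behind them are not given in the sources used here. Since these are intensities, the number of arrays limits the precision. Animal IDs are taken as separate mice. Of the 466 deposited columns, 197 were not used, among them the fat and hypothalamus arrays of J mice. Of 32640 probe sets 25508 carried 1 gene symbol, 0 several and 7132 none, and 4066 names were updated through current RefSeq names (GRCm38.p6), which held 16601 of the 16643 symbols.

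For each gene the probe set with the highest mean over the 80 liver arrays was used, and genes whose mean log2 intensity lay above percentile 25 of all probe sets were tested. Limma 3.58.1 in R 4.3.3 (trend, robust, two-sided) was run on log2 intensity with day as a factor over the 39 N livers, and separately over the 40 J livers. Genes were called at a Benjamini-Hochberg adjusted p under 0.05 over all genes tested, and values after ± are standard errors of the log2 change unless SD is written. The fit was tested on simulated data.

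The members and lists were chosen with earlier results of these data known. Named genes were the 12 higher and 12 lower called genes of largest change whose groups did not overlap, up to 4 called genes a list by smallest adjusted p, and a list of key genes. Alternatives were other sets of arrays, filters, scalings, an offset of 0.1, the mean of probe sets, no trend, marker covariates and leaving out mice. Promoters were searched for each motif on both strands, from 250 bases before to 50 after the RefSeq start.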

Additional observations from a re-analysis of the deposited data

Results flagged for a closer look

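Of 248 groups of 6 mice tested among the named genes, 11 held 1 mouse that stood apart from its group by Dixon's criterion, and chance flags about 1 in 20 groups. At day 60 the mouse N14 had 10.2 for Creld2, where the other 5 lay between 8.01 and 8.57, and 12.04 for C9, where the others lay between 10.7 and 11.2. The day 60 mouse N62 had 6.396 for Got1 and 0.2642 for Ppp1r3g, where the other day 60 mice reached 4.90 for Got1 and 0.109 for Ppp1r3g.

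At day 0 the mouse N74 had 0.7124 for Ppp1r3g (others up to 0.281) and 1.142 for Oit3 (others up to 1.02). The day 0 mouse N72 had 0.268 for Arntl (others up to 0.184) and 1.408 for Syvn1 (others up to 1.04). The day 0 mouse N50 had 7.368 for Angptl4 (others up to 5.99) and 15.64 for Rps15 (others from 16.1). The day 0 mouse N30 had 0.08404 for Loxl1 (others from 0.0978).

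For some genes all 6 day 60 mice lay on one side of the day 0 mean in liver and all day 60 samples lay on the opposite side in another tissue of the same mice. The differences between tissues were not tested. Cfd, lower in liver, had log2 changes of 0.277, 0.119, 0.164 and 0.09 in fat labelled mesenteric, perigonadal, perirenal and subcutaneous. Tfrc, higher in liver, had -0.221 in fat labelled perigonadal and -0.138 in fat labelled perirenal. Krt23 had 0.135 and Syvn1 had -0.051 in hypothalamus. Sdf2l1 had -0.125 in fat labelled mesenteric, Mt1 had 0.164 in fat labelled perigonadal, Mogat1 had 0.125 in fat labelled perirenal and Gpcpd1 had 0.206 in fat labelled subcutaneous. Limma called all values of Cfd in fat, and those of Tfrc and Mt1 in fat labelled perigonadal (adjusted p = 0.0246 and 0.0226). The others listed were not called (adjusted p from 0.108 to 0.657). Mt2 was called lower, as in liver, in hypothalamus (-0.178) and in fat labelled perirenal (-0.227) and subcutaneous (-0.415). It was not called in fat labelled mesenteric (-0.07) or perigonadal (0.143).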

How the results depend on the processing

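Day 60 against day 0 gave between 977 and 1295 higher and between 1138 and 1418 lower genes under the other fits, filters, scalings, the offset, the mean of probe sets and no trend. With erythrocyte and muscle marker means as covariates 702 were higher and 708 lower, and leaving out each of the 12 mice gave 846 to 1134 higher and 941 to 1334 lower. For day 42 against day 0 the covariates left 146 higher and 178 lower genes in N mice and 0 higher and 7 lower in J mice, and leaving out the day 42 mouse N70, chosen after seeing the data, left 374 and 589. Leaving out each day 0 mouse gave 442 to 596 higher and 694 to 938 lower genes at day 42 in N mice. For day 60 against day 42 the fit of all 80 liver arrays called 1 gene higher. Of 114 named genes called, 43 lost the call with the covariates, 14 in the fit of all 80 liver arrays, 10 with only 12 arrays, and 5 to 20 when 1 mouse was left out. The cause was not tested. Of the named genes not called, Arntl gained the call in 3 settings, Pck1 in 2, Dbp in 1 and Pparg in 1. The sign of Rpl22 turned with the mean of its probe sets (-0.035). The genes Scd1, G6pc and Igf1, near 0 and not called, also turned. Scd1 was 0.020 with the mean of probe sets and -0.024 to 0.013 with 1 mouse left out. G6pc was 0.101 with the covariates and -0.054 to 0.025 with 1 mouse left out. Igf1 was -0.003 after quantile normalization, -0.069 with the mean of probe sets and -0.005 to 0.007 with 1 mouse left out. No paired analysis was possible because the day 60 and day 0 mice are different animals whose IDs do not repeat between days. Signal over background cannot be given, since the table holds no background values.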

Other observations

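Gene families chosen after their values were seen held further groups of secretory and translation genes. Of 21 genes of the ER translocon and signal recognition 11 rose and 0 fell, with a median change of 0.11, against 7.71% of all genes. Among them Ssr2, a translocon-associated protein, averaged 3.82 ± 0.25 at day 60 and 3.09 ± 0.10 at day 0 (SD, n = 6 each), a change of 0.30 with a limma adjusted p of 8.74e-06. Sec61a1, which forms the channel, averaged 5.48 ± 0.11 at day 60 and 4.86 ± 0.20 at day 0. Of 7 subunits of the cytosolic chaperonin, which folds actin and tubulin, 6 rose, among them Cct3 (0.18) and Cct5. Of 16 aminoacyl-tRNA synthetase genes 7 rose and 0 fell, among them Iars (0.24) and Wars (0.30). Of 47 translation initiation genes 15 rose and 4 fell (31.9% and 8.5%, against 7.71% and 9.01% of all genes).

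Of 24 autophagy genes, also chosen after their values were seen, 9 fell and 0 rose (37.5%, against 9.01% of all genes), with a median of -0.09. Map1lc3b, which coats the growing autophagosome, averaged 4.46 ± 0.24 at day 60 and 5.07 ± 0.10 at day 0 (SD, n = 6 each), and its groups did not overlap. Its relative Gabarapl1 averaged 9.63 ± 0.50 at day 60 and 11.1 ± 0.36 at day 0, again with no overlap. Ulk1, the kinase that starts autophagy, changed by -0.23 (limma adjusted p = 0.0162) with an overlap. The zinc importer gene Slc39a10 averaged 0.639 ± 0.053 at day 60 and 0.485 ± 0.043 at day 0 and did not overlap (0.40, limma adjusted p = 5.14e-05). It was picked after the values were seen from 271 solute carrier genes, of which 20 rose and 40 fell (7.4% and 14.8%, against 7.71% and 9.01% of all genes). Its relatives Slc39a6 and Slc39a7 rose and Slc39a11 fell. A link to the fall of both metallothionein genes was not tested.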
